A study of Mus musculus with 6 samples.

Results

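The 10 chemokine ligand genes described here are those that T cells are known to make: Ccl1, Ccl3, Ccl4, Ccl5, Ccl17, Ccl20, Ccl22, Xcl1, Cxcl10 and Cxcl3. They were found by gene name among the 54532 genes of the deposited count table, and all 10 were present once. Their transcripts were compared between GOT1-/- and wild-type (WT) T helper 17 (Th17) cells, with 3 poly-A RNA libraries for each genotype. GOT1 is the cytosolic aspartate transaminase, an enzyme that moves amino groups between aspartate and glutamate. The GOT1-/- cells came from mice lacking GOT1 in T cells and the WT cells from wild-type mice, all on the C57BL/6 strain and 6 to 10 weeks old, of either sex. The sources used here name neither the driver of the deletion nor the animals behind each replicate. The p-values therefore rest on the spread among these libraries, and that spread may be technical. In both genotypes naive CD4+ T cells, sorted as CD25-, CD62L+ and CD44-, were stimulated through CD3 and CD28. The medium held TGF-beta (2.5 ng/ml), 10 ng/ml of each of IL-6, IL-23 and IL-1beta, and blocking antibodies to IL-4 and IFN-gamma (2 ug/ml). RNA was taken on day 4.

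Got1 itself was at 16.2 ± 1.25 CPM (counts scaled to a library total of 1000000) in GOT1-/- cells and 168 ± 4.59 CPM in WT cells (SD, n = 3 each), in the direction of the labels; which part of the gene was deleted is not known here. The libraries carried abundant T cell transcripts, among them Cd4 at 641 ± 9.88 CPM in GOT1-/- cells and 681 ± 9.46 CPM in WT cells, and the Th17 cytokine gene Il17a at 122 ± 10.2 CPM in GOT1-/- cells and 75.5 ± 0.737 CPM in WT cells (SD, n = 3 each). Library totals were 17557436 to 22541410 counts in GOT1-/- cells and 16463752 to 21239075 counts in WT cells.

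Chemokines are small secreted proteins that bind G protein-coupled receptors and guide cells along their gradients. They are grouped by the spacing of their first cysteines into CC, CXC and C families, and one receptor often binds several ligands. Activated T cells are a known source of CC chemokines that draw in monocytes, dendritic cells and other T cells. Th17 cells are known for CCL20, the ligand of their own receptor CCR6, and are linked to the recruitment of neutrophils through CXC chemokines.

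In GOT1-/- cells, 5 of the 10 genes rose and none fell. Ccl22 rose 5.78-fold, Ccl3 3.38-fold, Cxcl3 2.81-fold, Ccl4 2.15-fold and Ccl20 1.6-fold (edgeR quasi-likelihood test, 3 libraries against 3). Ccl5 was tested and not called. Ccl1, Ccl17, Xcl1 and Cxcl10 were too low to test. Of all 12873 genes tested, 22.9% were called higher and 21.0% lower, so about as many genes fell as rose. Among the 3000 tested genes within the range of levels of the tested ligands, 0.611 to 5.73 CPM, 13.2% were called higher and 11.2% lower. The members that were tested are not a fair sample of the 10: Cxcl3 passed the filter on low counts through the GOT1-/- libraries alone, and Ccl22 passed in all 3 GOT1-/- and 2 WT libraries. The median log2 fold change of the 6 tested members was 1.3, against 0.01 over all genes tested. For 6 of the 10 genes every GOT1-/- library lay above every WT library, and for none did every GOT1-/- library lie below. The 6 are the 5 that rose and Xcl1, which was too low to test. Over all genes tested, which leave out Xcl1, these shares were 27.7% and 25.8%. In bulk RNA, more cells that make a transcript and more RNA per cell cannot be told apart.

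**Figure D1:**
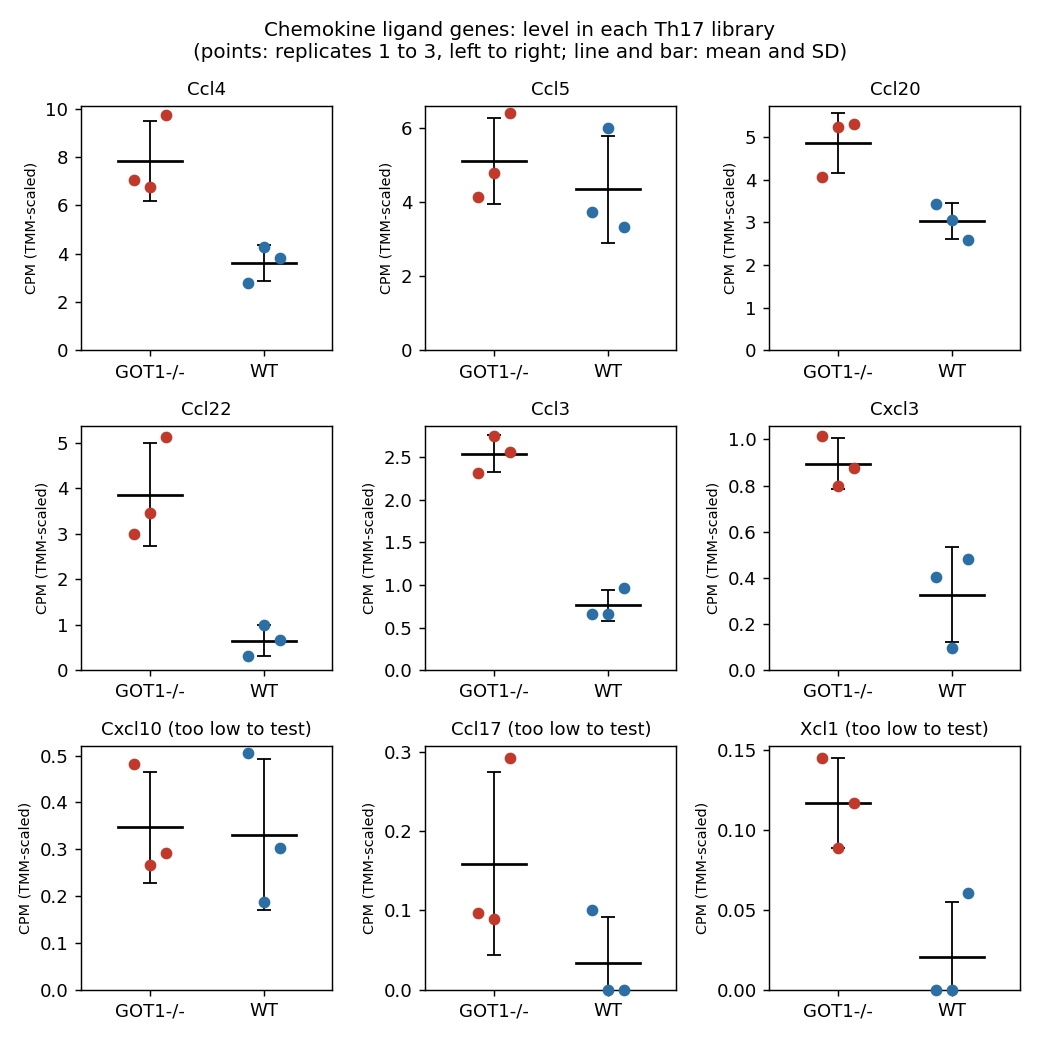
Level of each detected chemokine ligand gene in each library, in CPM on a linear axis from 0, with GOT1-/- on the left and WT on the right. Points are replicates 1 to 3, lines are means and bars are SDs (lower ends cut at 0); all GOT1-/- points lie above all WT points for Ccl4, Ccl20, Ccl22, Ccl3, Cxcl3 and Xcl1, and the groups overlap for Ccl5, Cxcl10 and Ccl17.

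The genes lie on chromosomes 1, 5, 8 and 11, and the coordinates deposited for all 10 (GRCm38) are the same in GENCODE mouse release M21. Promoters from RefSeq (GRCm38.p6; 250 bases before to 50 bases after the start of the gene) were found for 8 members, all but Ccl4 and Ccl5. The RefSeq start lies 94 bases downstream of the deposited one for Ccl22 and 126 kb downstream for Ccl1, whose promoter is thus not at the deposited start; for the others the starts lie within 23 bases. The 4 of these members that rose and Cxcl10, which was near the limit of detection in both genotypes, are printed 5′ to 3′ so that their motifs can be compared. Capitals mark matches on either strand to GGANNTTCC (NF-kappaB), TGANTCA (AP-1), TTCNNNGAA (STAT), GAAANNGAA (interferon response element) and AGGTCA (ROR).

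Ccl22 (chr8:94745434-94745733, plus strand): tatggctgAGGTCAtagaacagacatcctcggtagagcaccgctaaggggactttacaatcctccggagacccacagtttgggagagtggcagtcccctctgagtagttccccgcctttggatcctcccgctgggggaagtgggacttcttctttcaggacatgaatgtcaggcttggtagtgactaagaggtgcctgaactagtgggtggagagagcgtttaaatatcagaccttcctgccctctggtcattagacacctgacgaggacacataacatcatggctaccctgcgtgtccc

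Ccl3 (chr11:83649329-83649628, minus strand): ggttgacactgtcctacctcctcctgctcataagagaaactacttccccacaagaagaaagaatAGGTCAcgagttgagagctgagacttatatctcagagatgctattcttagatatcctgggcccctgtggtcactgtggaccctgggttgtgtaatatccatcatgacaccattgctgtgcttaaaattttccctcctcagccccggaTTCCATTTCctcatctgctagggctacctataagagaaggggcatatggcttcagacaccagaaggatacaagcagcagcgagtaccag

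Ccl20 (chr1:83116516-83116815, plus strand): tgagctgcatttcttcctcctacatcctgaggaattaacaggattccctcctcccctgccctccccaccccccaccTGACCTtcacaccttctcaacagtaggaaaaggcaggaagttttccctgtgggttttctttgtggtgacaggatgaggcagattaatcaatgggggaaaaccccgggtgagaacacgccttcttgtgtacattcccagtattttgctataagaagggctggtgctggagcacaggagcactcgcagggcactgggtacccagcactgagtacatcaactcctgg

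Cxcl3 (chr5:90785851-90786150, plus strand): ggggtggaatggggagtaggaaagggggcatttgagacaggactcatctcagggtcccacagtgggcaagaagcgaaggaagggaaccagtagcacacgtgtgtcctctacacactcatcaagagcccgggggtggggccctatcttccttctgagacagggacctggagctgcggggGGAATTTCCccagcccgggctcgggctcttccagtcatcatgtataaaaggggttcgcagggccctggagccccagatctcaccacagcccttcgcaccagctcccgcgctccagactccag

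Cxcl10 (chr5:92348840-92349139, minus strand): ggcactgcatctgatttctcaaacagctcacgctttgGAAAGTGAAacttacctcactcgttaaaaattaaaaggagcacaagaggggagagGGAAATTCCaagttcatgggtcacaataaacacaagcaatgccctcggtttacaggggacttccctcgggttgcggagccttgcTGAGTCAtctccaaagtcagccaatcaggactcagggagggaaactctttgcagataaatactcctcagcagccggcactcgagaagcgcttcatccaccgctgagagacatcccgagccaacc

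The ROR motif was found in Ccl22, Ccl3 and Ccl20, in the last of these on the opposite strand, and among the other promoters in Ccl17. It stood in 4 of the 8 members' promoters, and in 16.3% of all 32851 promoters of the same length. The NF-kappaB motif stood in Cxcl3, Cxcl10 and Ccl1, against 4.26% of all promoters. The AP-1 motif stood in Cxcl10 alone of the 8, against 7.81% of all promoters, and the STAT motif in Ccl17 alone, against 8.30%. The interferon response element stood in Cxcl10, Ccl3 and Ccl1, against 8.56%. The short NFAT motif GGAAA, not shown in capitals, stood in 7 of the 8 and in 61.3% of all promoters, and it overlaps the NF-kappaB matches in Cxcl3 and Cxcl10. It also overlaps the interferon response elements in Ccl3, Cxcl10 and Ccl1. None of the 4 promoters printed for members that rose held the AP-1 or STAT motif, and Ccl4, which also rose, was not searched. A match describes letters only.

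Levels between genes were compared per length, as TPM, in which counts are divided by gene length and scaled to a fixed sum. In GOT1-/- cells Ccl4 was the highest at 33.4 ± 5.88 TPM, followed by Ccl5 at 15 ± 2.96, Ccl20 at 9.65 ± 1.33, Ccl3 at 9.37 ± 0.903 and Ccl22 at 4.66 ± 1.21 TPM (SD, n = 3). In WT cells Ccl4 had 17.0 ± 3.59, Ccl5 14 ± 4.48, Ccl20 6.60 ± 0.833, Ccl3 3.09 ± 0.782 and Ccl22 0.868 ± 0.45 TPM (SD, n = 3). The order of these 5 genes was the same in both genotypes. Among neighbours in it, the ranges of Ccl20 and Ccl3 overlapped in GOT1-/- cells and those of Ccl4 and Ccl5 in WT cells. The other members averaged under 1 TPM in both genotypes, and in neither did neighbours among Ccl17, Cxcl3, Xcl1 and Cxcl10 differ beyond their spread. In WT cells Ccl22 overlapped the next of them too. Ccl1 had no counts. As a share of the members' summed TPM, Ccl22 made up 6.17 ± 0.688% in GOT1-/- cells and 1.96 ± 0.789% in WT cells. Ccl5 made up 19.96 ± 1.15% in GOT1-/- cells and 32.5 ± 5.91% in WT cells. The summed level of the 10 genes was 22.3, 24.2 and 30.8 CPM in GOT1-/- replicates 1 to 3, against 11.9, 15.2 and 12.2 CPM in WT replicates 1 to 3. This sum was below the receptor gene Ccr4, at 272 ± 12.1 CPM in GOT1-/- cells and 248 ± 16.3 CPM in WT cells (SD, n = 3). It was above the receptor gene Ccr6, at 10.8 ± 2.15 CPM in GOT1-/- cells and 10.0 ± 1.21 CPM in WT cells (SD, n = 3). These levels are not scaled by length, and Ccr4 is among the more abundant receptor genes.

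The ligands of CCR4, a receptor found on Th2 cells, regulatory T cells and Th17 cells, are CCL22 and CCL17. Ccl22 (ENSMUSG00000031779, chromosome 8, 94745590 to 94751699, plus strand, 3 exons) had 62, 78 and 88 counts in GOT1-/- replicates 1 to 3, against 6, 21 and 11 counts in WT replicates 1 to 3. The groups stood well apart, with 2.99 CPM in the lowest GOT1-/- library and 0.985 CPM in the highest WT library. Its level was 3.86 ± 1.13 CPM in GOT1-/- cells and 0.651 ± 0.341 CPM in WT cells (SD, n = 3 each), with a log2 fold change of 2.53 (SE 0.33, 95% interval 1.83 to 3.23, adjusted p = 1.54e-05). Leaving out each library in turn gave log2 fold changes of 2.17 to 3.01. Ccl17, 58.8 kb downstream on the same chromosome, had 2, 2 and 5 counts in GOT1-/- cells against 2, 0 and 0 in WT cells. The pooled Ccl17 counts of 9 and 2 gave a ratio of 4.30, with an exact 95% counting interval of 0.889 to 40.9 that includes no change. Cx3cl1, the ligand gene that lies between them, had 1, 3 and 1 counts in GOT1-/- cells against 0, 0 and 7 in WT cells. Ccr4 itself was not called (log2 fold change 0.13, adjusted p = 0.132).

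Ccl3, Ccl4 and Ccl5 encode inflammatory CC chemokines that attract monocytes and effector T cells, and CCL3 and CCL5 bind CCR1. Ccl3 (ENSMUSG00000000982, chromosome 11, 83647844 to 83649355, minus strand, 3 exons) had 48, 62 and 44 counts in GOT1-/- replicates 1 to 3, against 13, 14 and 16 in WT replicates 1 to 3. The groups did not overlap and each was tight: 2.54 ± 0.218 CPM in GOT1-/- cells and 0.76 ± 0.179 CPM in WT cells (SD, n = 3 each). The log2 fold change was 1.76 (SE 0.28, 95% interval 1.16 to 2.35, adjusted p = 9.79e-05). Ccl4 (ENSMUSG00000018930, 83662584 to 83664683, plus strand, 3 exons), 13.2 kb from Ccl3 on the opposite strand, had 146, 152 and 167 counts in GOT1-/- replicates 1 to 3, against 55, 91 and 63 in WT replicates 1 to 3. GOT1-/- replicate 3 was the highest library, and the lowest GOT1-/- library was still above every WT library. Ccl4 averaged 7.84 ± 1.66 CPM in GOT1-/- cells and 3.62 ± 0.762 CPM in WT cells (SD, n = 3 each), with a log2 fold change of 1.10 (SE 0.19, 95% interval 0.70 to 1.5, adjusted p = 0.000186). CCL3 and CCL4 are close paralogs, and reads that fit both genes could have been divided between them.

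Ccl5 (ENSMUSG00000035042, 83525778 to 83530518, minus strand, 3 exons), which encodes a chemokine made late after T cell activation and abundant in cytotoxic T cells, had 86, 108 and 110 counts in GOT1-/- replicates 1 to 3. It had 74, 128 and 55 counts in WT replicates 1 to 3. The groups overlapped, because WT replicate 2, at 6.00 CPM, lay above GOT1-/- replicates 1 and 2. The level was 5.12 ± 1.17 CPM in GOT1-/- cells and 4.35 ± 1.44 CPM in WT cells (SD, n = 3 each), with a log2 fold change of 0.20 (SE 0.22, 95% interval -0.26 to 0.67, adjusted p = 0.475). Without WT replicate 2 the log2 fold change was 0.52 and the adjusted p 0.076, and after the corrections for gene length, or for length and GC content, it was -0.00315 and -0.0357.

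Along 139 kb of chromosome 11 (83525778 to 83664683) the table lists 5 chemokine ligand genes, in the order Ccl5, Ccl9, Ccl6, Ccl3 and Ccl4. The ends of this stretch were set by Ccl5 and Ccl4, and no other stretch was examined in this way. Of the 5 genes, all but Ccl5 rose. Over all genes tested, 22.9% were called higher, and 13.2% of those within the level range of the tested ligands. To compare genes within a library, log2 ratios of CPM were taken, a comparison chosen after the values were seen. The log2 ratio of Ccl4 to Ccl5 was 0.62 ± 0.14 in GOT1-/- cells and -0.24 ± 0.38 in WT cells. The log2 ratio of Ccl3 to Ccl5 was -0.99 ± 0.29 in GOT1-/- cells and -2.49 ± 0.71 in WT cells, and that of Ccl3 to Ccl4 was -1.61 ± 0.32 in GOT1-/- cells and -2.25 ± 0.39 in WT cells (SD, n = 3 each). For all 3 ratios computed, every GOT1-/- library lay above every WT library. The two-sided exact permutation p was 0.1 for each (0.1 adjusted over the 3), which is the smallest that 3 libraries against 3 allow. The ratios thus did not overlap between genotypes, in a design that could not reach a p under 0.05. They restate the levels of the same 3 genes, and each ratio follows from the other ones. How often ratios of other gene pairs separate the genotypes was not computed. For Ccl3 to Ccl4 the groups nearly met, at -1.92 in GOT1-/- replicate 3 and -1.98 in WT replicate 3.

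Ccl20 (ENSMUSG00000026166, chromosome 1, 83116766 to 83119167, plus strand, 4 exons) encodes the ligand of CCR6 and is part of the Th17 programme itself. It had 84, 118 and 91 counts in GOT1-/- replicates 1 to 3, against 68, 65 and 43 in WT replicates 1 to 3. The groups did not overlap in CPM, with 4.05 to 5.31 in GOT1-/- cells and 2.60 to 3.43 in WT cells. The log2 fold change was 0.67 (SE 0.19, 95% interval 0.28 to 1.07, adjusted p = 0.00772), the smallest of the 5 called members, and 0.48 after the length correction (adjusted p = 0.0451). The receptor gene Ccr6 was at 10.8 ± 2.15 CPM in GOT1-/- cells and 10.0 ± 1.21 CPM in WT cells (SD, n = 3 each) and was not called (log2 fold change 0.10, adjusted p = 0.617).

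Cxcl3 (ENSMUSG00000029379, chromosome 5, 90786103 to 90789600, plus strand, 4 exons) encodes a ligand of CXCR2, the receptor that draws in neutrophils. It had 21, 18 and 15 counts in GOT1-/- replicates 1 to 3, against 8, 2 and 8 in WT replicates 1 to 3. All GOT1-/- libraries were higher, and the WT spread came mainly from WT replicate 2. Cxcl3 was at 0.895 ± 0.109 CPM in GOT1-/- cells and 0.327 ± 0.206 CPM in WT cells (SD, n = 3 each), with a log2 fold change of 1.49 (SE 0.47, 95% interval 0.51 to 2.47, adjusted p = 0.0153). This call was lost without WT replicate 2 (log2 fold change 1.01, adjusted p = 0.0925) and in DESeq2 (1.48, adjusted p = 0.0633). Cxcl2, a close relative on the same chromosome that also acts through CXCR2, was too low to test, with 6, 7 and 5 counts in GOT1-/- cells against 3, 3 and 2 in WT cells. Cxcl1 had 2, 0 and 0 counts in GOT1-/- cells and none in WT cells.

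Cxcl10 encodes a ligand of CXCR3 that interferons induce, and the cultures of both genotypes held an antibody against IFN-gamma. Cxcl10 (ENSMUSG00000034855, chromosome 5, 92346638 to 92348889, minus strand) had 10, 6 and 5 counts in GOT1-/- replicates 1 to 3, against 10, 4 and 5 in WT replicates 1 to 3. The pooled counts of 21 and 19 gave a ratio of 1.06 with an exact 95% counting interval of 0.54 to 2.07, so a change smaller than these bounds was not detectable at this depth. Its neighbours Cxcl9 and Cxcl11, the other interferon-induced CXCR3 ligands, had at most 1 count in any library. Of 17 interferon-induced genes 9 were tested, of which Isg15 (log2 fold change 1.07) and Usp18 (1.26) rose and Gbp2 (-1.23), Gbp3 (-0.85) and Irf7 (-0.66) fell. Their median log2 fold change was -0.17, against 0.01 over all genes tested, of which 22.9% were called higher and 21.0% lower. Counts of Irf7 are uncertain, since it overlaps Phrf1.

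Xcl1 (ENSMUSG00000026573, chromosome 1, 164931644 to 164935527, minus strand) encodes the C family chemokine that attracts cross-presenting dendritic cells. It had 3, 2 and 2 counts in GOT1-/- replicates 1 to 3, against 0, 0 and 1 in WT replicates 1 to 3. The groups did not overlap, but the pooled counts of 7 and 1 gave a ratio of 6.68 with an exact 95% counting interval of 0.859 to 301 that includes no change. Ccl1 (ENSMUSG00000020702, chromosome 11, 82176657 to 82305690, minus strand), whose product is the ligand of CCR8 and is made by activated T cells, had no counts in any library. A count of 0 allows up to 0.133 to 0.175 CPM in the GOT1-/- libraries and 0.141 to 0.181 CPM in the WT libraries, for counting error only. When no filter on low counts was applied, edgeR called none of Ccl17, Xcl1 and Cxcl10 (adjusted p = 0.354, 0.343 and 0.963).

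**Figure D2:**
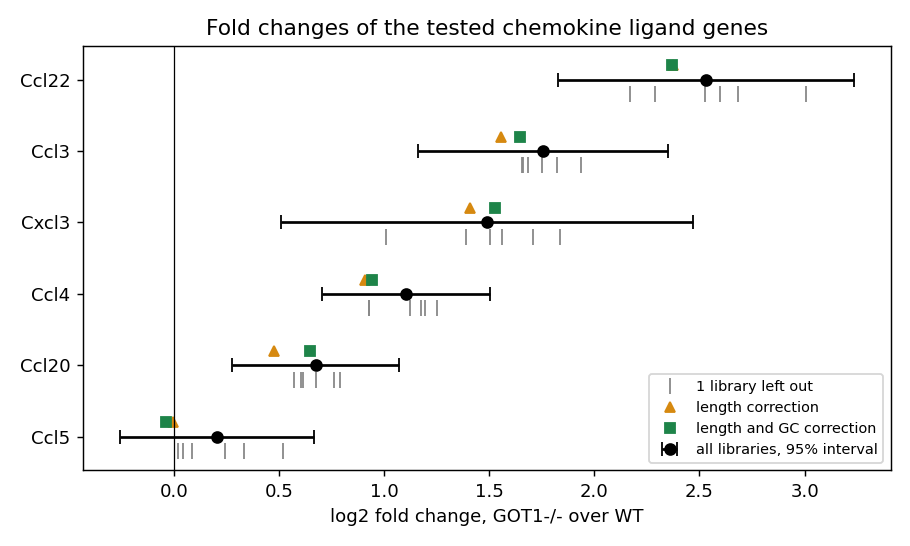
Log2 fold change of GOT1-/- over WT for the 6 tested chemokine ligand genes. Black points and bars are the estimate and 95% interval from all 6 libraries, grey ticks leave out 1 library each, and coloured marks are the length correction and the length and GC correction; every mark of Ccl22, Ccl3, Cxcl3, Ccl4 and Ccl20 lies above 0, and the interval of Ccl5 spans 0.

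Outside these 10, a list of 30 other mouse chemokine ligand genes held 15 with no counts at all and 5 that were tested. Of those 5, 3 rose, 1 fell and 1 was not called, against 22.9% called higher and 21.0% lower over all genes tested. One of the 3, Cxcl16, passed the filter through the GOT1-/- libraries alone. Ccl6, which encodes a CC chemokine made mainly by myeloid cells in mice, was at 5.19 ± 0.48 CPM in GOT1-/- cells and 1.46 ± 0.257 CPM in WT cells (log2 fold change 1.84, adjusted p = 3.60e-06). Ccl9, a relative of similar origin, was at 3.15 ± 0.745 CPM in GOT1-/- cells and 1.03 ± 0.166 CPM in WT cells (1.61, adjusted p = 0.000121). Cxcl16, which encodes the ligand of CXCR6, had 23, 13 and 23 counts in GOT1-/- replicates 1 to 3, against 2, 7 and 0 in WT replicates 1 to 3 (2.63, adjusted p = 0.00202). Its log2 fold change was 4.02 without WT replicate 2, and 2.14 at the lowest with another library left out. Ccl25, whose product attracts gut-homing T cells, fell to 2.25 ± 0.535 CPM in GOT1-/- cells, against 3.53 ± 0.608 CPM in WT cells (-0.65, adjusted p = 0.0307; SD, n = 3 each here). The Ccl25 call did not survive DESeq2 (adjusted p = 0.0687), the length correction (0.0742), the length and GC correction (0.161) or leaving out GOT1-/- replicate 2 (0.149), WT replicate 1 (0.0792) or WT replicate 3 (0.108). Its counts are uncertain as well, because it overlaps the more abundant Elavl1. Ccl27a was at 2.75 ± 0.315 CPM in GOT1-/- cells and 2.53 ± 0.789 CPM in WT cells (0.11, adjusted p = 0.734), and it overlaps Il11ra1, so these counts are uncertain too.

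The receptors of the 10 ligands did not move with them as a group. Of 9 receptor genes 8 were tested: 1 rose, 2 fell and 5 were not called, with a median log2 fold change of 0.06 against 0.01 over all genes tested. Over all genes tested, 22.9% were called higher and 21.0% lower, so these counts do not set the receptors apart. Cxcr2, the receptor gene for CXCL3, fell to 10.3 ± 1.24 CPM in GOT1-/- cells, against 18.1 ± 0.953 CPM in WT cells (log2 fold change -0.81, SE 0.11, adjusted p = 2.56e-05). Ccr1 rose to 2.90 ± 0.439 CPM in GOT1-/- cells, against 1.73 ± 0.293 CPM in WT cells (SD, n = 3 each; 0.74, SE 0.23, adjusted p = 0.0164), a call lost in DESeq2 (adjusted p = 0.0551) and without GOT1-/- replicate 3 (0.0675) or WT replicate 1 (0.0825). For CXCL3 and CXCR2, ligand transcripts were thus higher and receptor transcripts lower in the same libraries. Ccr8 (0.18), Ccr3 (-0.59) and Cxcr3 (0.02) were not called in log2 fold change, and Xcr1, the receptor gene for XCL1 in dendritic cells, was too low to test. Without WT replicate 1 Ccr8 was called higher (0.27, adjusted p = 0.0463). Over all 23 chemokine and atypical receptor genes, 16 were tested, 3 rose and 5 fell, which is also near the shares over all genes. The others that rose were Cxcr6 (0.54), the receptor gene for CXCL16, and Cx3cr1 (1.07), and those that fell included Cxcr1 (-0.39), Cxcr4 (-0.41) and Cxcr5 (-0.68). Cxcr6, Cx3cr1 and Cxcr5 overlap other genes, and their counts are uncertain. The call of Cx3cr1 was lost without GOT1-/- replicate 2 (adjusted p = 0.0799).

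Genes for transcription factors that are known to act on chemokine promoters moved in both directions. Among 17 genes of the NF-kappaB, NFAT and AP-1 families there were 5 that rose and 5 that fell, and the list had a median log2 fold change of 0.06. Over all genes tested, 22.9% were called higher and 21.0% lower, so movement in both directions was not particular to these factors. Batf3, which encodes an AP-1 family factor, rose to 22.7 ± 1.52 CPM in GOT1-/- cells, against 8.16 ± 0.346 CPM in WT cells (SD, n = 3 each; log2 fold change 1.48, adjusted p = 3.02e-08). Nfkb1 (0.29) and Junb (0.37) rose by less, and Junb was not called after the length and GC correction (adjusted p = 0.328). Nfatc3 (-0.93), Rel (-0.62), Jun (-0.62), Nfatc1 (-0.32) and Fosl2 (-0.34) fell, and the length correction ended the call of Fosl2 (adjusted p = 0.168). Junb overlaps the abundant Prdx2, and its counts are uncertain. These 8 are the called factors with the smallest adjusted p. Whether any of these genes bears on the ligands was not tested.

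By pattern over the 6 libraries, the nearest of 10329 protein-coding genes with a mean of at least 2 CPM was sought for each tested member. Nearness was the Euclidean distance of log2 CPM centred on each gene's mean. The nearest to Ccl3 was its neighbour Ccl6, at a distance of 0.20. The nearest to Ccl20 was Thop1 (0.16), to Ccl4 9130401M01Rik (0.29), to Ccl5 Reep6 (0.31) and to Cxcl3 Trim9 (0.68). Ccl22 had no close match: its nearest gene was Bcl2a1b, at a distance of 1.00, which belongs to a family of near-identical copies among which reads may be divided.

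**Figure D3:**
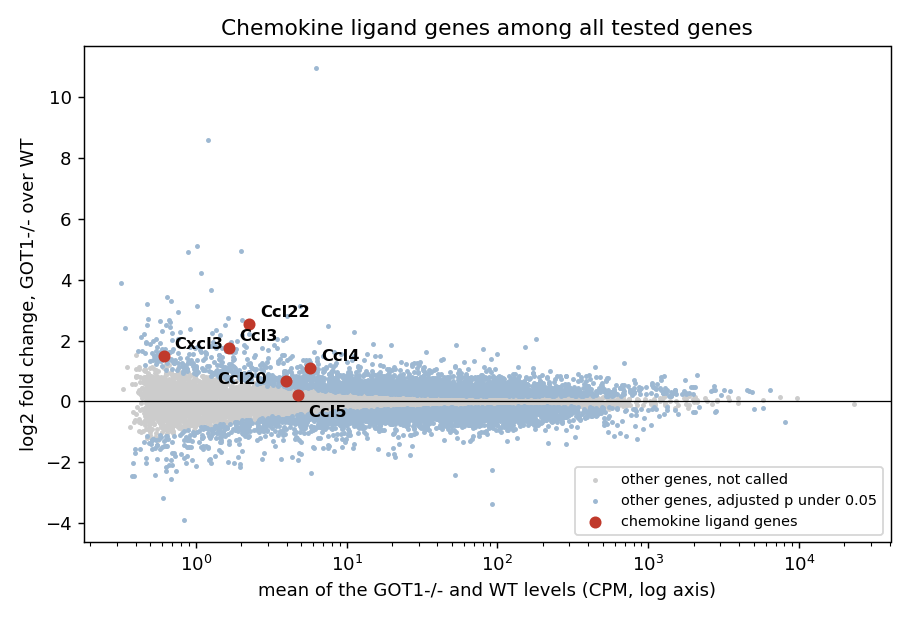
Log2 fold change of GOT1-/- over WT against the mean level on a log axis, for 12873 tested genes. The 6 tested chemokine ligand genes, in red, lie at the low end of the level axis, between 0.611 and 5.73 CPM, and Ccl22 is the highest of them at 2.53 on the log2 scale.

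Since the tested ligand genes had low mean levels, 0.611 to 5.73 CPM, markers of other cell types were read from the same libraries. Several rose, and others fell or were not called. Of 12 macrophage, monocyte and neutrophil markers 8 were tested: Lyz2 (1.63), Cd14 (1.47), Ly6c2 (1.17), S100a8 (3.43) and S100a9 (4.91) rose in log2 fold change and Cd68 (-0.83) fell. S100a8 and S100a9 passed the filter through the GOT1-/- libraries alone. The call of Ly6c2 was lost in DESeq2 (adjusted p = 0.0540) and in 4 of the 6 fits without a library (0.0562 to 0.0845), and Cd14 was at 2.06 without WT replicate 2. Their summed level was 30.5 to 35.6 CPM in the GOT1-/- libraries and 26.7 to 27.6 CPM in the WT libraries. S100a9 had 37, 49 and 21 counts in GOT1-/- cells, against 1, 0 and 2 in WT cells, so its fitted log2 fold change rests on 3 WT counts; leaving out WT replicate 2 gave 4.30, and leaving out WT replicate 3 gave 5.84. The macrophage marker Adgre1 had 3, 9 and 3 counts in GOT1-/- cells, against 2, 1 and 1 in WT cells. Of 11 dendritic cell markers 7 were tested: H2-Aa (2.10), Itgax (1.53), Batf3 (1.48), Cd74 (0.54) and H2-Ab1 (0.28) rose, and none fell. H2-Ab1, at 125 ± 5.93 CPM in GOT1-/- cells and 102 ± 16.3 CPM in WT cells (SD, n = 3 each), overlapped between the groups. It was not called with the length correction (0.10, adjusted p = 0.402), with the length and GC correction (0.01, adjusted p = 0.923) or without GOT1-/- replicate 2, WT replicate 1 or WT replicate 3 (adjusted p = 0.0782, 0.0714 and 0.138). The summed level of the 11 dendritic cell markers was 268 to 279 CPM in the GOT1-/- libraries and 173 to 211 CPM in the WT libraries. The most abundant beside H2-Ab1 was Cd74, at 114 ± 6.88 CPM in GOT1-/- cells and 78.3 ± 4.58 CPM in WT cells (SD, n = 3 each). Clec9a and Siglech, which are also on this list, had no counts. Of 9 mast cell and basophil markers 5 were tested: Prss34 (2.50), Gata2 (2.26), Cpa3 (1.77) and Mcpt8 (1.36) rose, and none fell. Kit, the most abundant of them and not called, was at 11.3 ± 1.21 CPM in GOT1-/- cells and 13.7 ± 1.6 CPM in WT cells (SD, n = 3 each; -0.29, adjusted p = 0.0639), with every GOT1-/- library below every WT library. The sum of the 9 mast cell and basophil markers was 22.0 to 25.1 CPM in the GOT1-/- libraries and 15.6 to 19.3 CPM in the WT libraries, with no counts of Tpsb2. Prss34 and Gata2 each reached the cutoff of the filter in all 3 GOT1-/- libraries but in only 1 WT library.

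Of 11 markers of gamma-delta T, NK and CD8 T cells 8 were tested: Trdc (0.87), Tcrg-C1 (1.44), Tcrg-C2 (1.06) and Tcrg-C4 (1.02) rose in log2 fold change and Klrd1 (-0.56) fell. Tcrg-C4 was not called with the length correction (adjusted p = 0.0518) or without GOT1-/- replicate 3 (0.0809), WT replicate 2 (0.0914) or WT replicate 3 (0.0567). Their sum was 65.9 to 72.4 CPM in the GOT1-/- libraries and 75.5 to 82.2 CPM in the WT libraries. None of the 3 tested of 7 B cell markers was called, and their sum was 3.59 to 3.74 CPM in the GOT1-/- libraries and 2.54 to 3.59 CPM in the WT libraries. None of the 3 tested of 7 fibroblast and epithelial markers was called either, with a sum of 6.48 to 7.33 CPM in the GOT1-/- libraries and 6.21 to 7.73 CPM in the WT libraries. Of the markers of myeloid, dendritic, mast and basophil cells called in the test of all 6 libraries, all but Cd68 rose. Among the called are S100a8, S100a9, Prss34 and Gata2, which passed the filter on low counts because of the GOT1-/- libraries. Batf3 is counted there and also among the AP-1 factors. Of those tested and not called, Kit (-0.29), Zbtb46 (-0.37) and Itgam (-0.21) had negative log2 fold changes, Csf1r (0.73) and Flt3 (0.47) positive ones. Over all genes tested, 22.9% were called higher and 21.0% lower. Outside the myeloid, dendritic, mast and basophil lists, Klrd1 fell, Trdc and the Tcrg-C genes rose, and no B cell marker was called. The part of any of these cell types in the higher levels of Ccl22, Ccl3, Ccl4, Ccl20 and Cxcl3 was not tested.

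**Figure D4:**
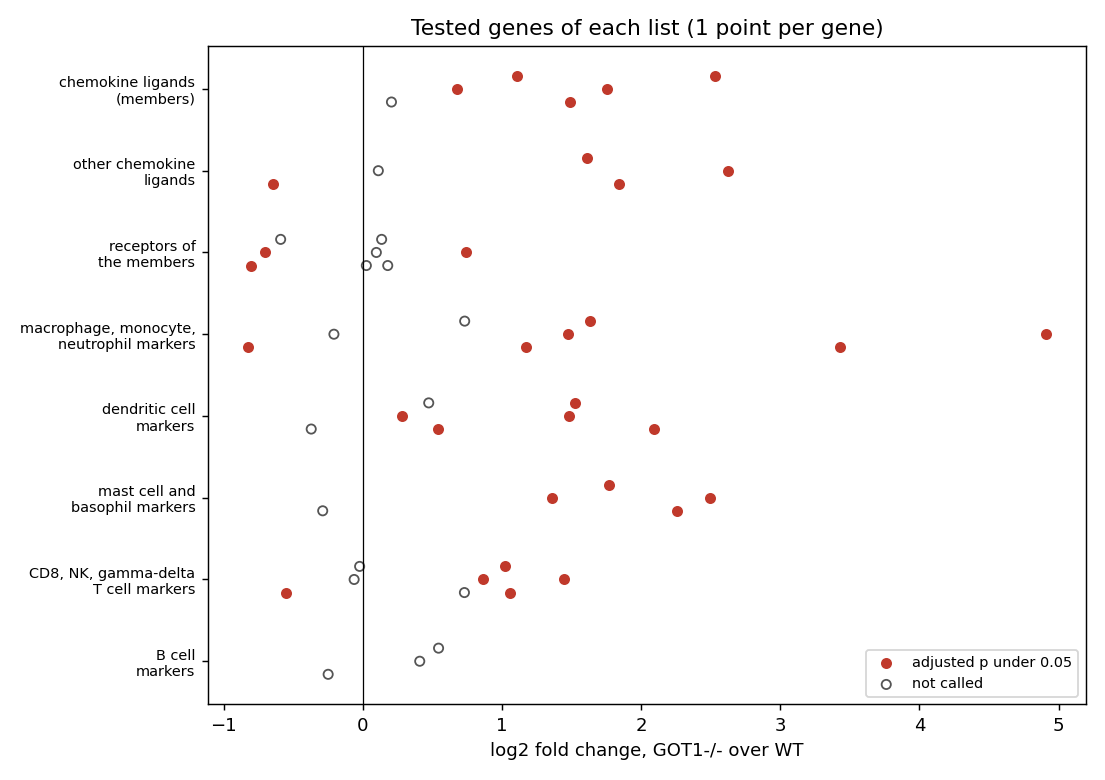
Log2 fold change of GOT1-/- over WT for each tested gene of 8 lists, with filled red points for an adjusted p under 0.05 and open points for genes not called. Called points lie to the right of 0 for 5 chemokine ligands of the described set, for 4 mast cell and basophil markers and for 5 dendritic cell markers, whereas the receptors of the ligands lie on both sides.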

How the data were processed

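RNA of 6 Th17 cultures, 3 GOT1-/- and 3 WT, was sequenced after poly-A selection. The deposited table holds raw whole-number counts for each gene, beside gene coordinates and lengths. STAR and GRCm38 were used, per the submitters' processing notes. The sources used here do not name the counting program, its handling of strand or the annotation. Reads of paralogs or overlapping genes may therefore be divided in ways that cannot be checked.

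Counts were tested with edgeR 4.0.16 in R 4.3.3. Low genes were removed with filterByExpr (count 10, total 15 at least), libraries scaled by TMM and tested by the quasi-likelihood F-test with genotype as the only term. P-values were two-sided and adjusted by Benjamini-Hochberg over all genes tested, with calls at an adjusted p under 0.05. CPM used TMM-scaled totals, and TPM used the deposited lengths. Log2 CPM used a prior count of 2. No 2 replicates agreed within sampling noise (chi-square over its degrees of freedom was 3.76 to 13.7), so all were kept. Same-numbered replicates did not pair (correlations of deviations -0.03 to 0.06). Intervals on pooled counts were exact (Clopper-Pearson) and cover counting error only, as does the limit of 3 counts for a count of 0. The length corrections removed each library's smooth trend (robust regression on splines with 5 degrees of freedom). GC content came from GENCODE M21 transcripts.

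The members and lists were chosen with earlier results of these data known. Named were all members, called genes of the lists (at most 8 a list), the members' receptors, and the nearest gene by pattern. Other genes were chosen after their values were seen. Some genes of the lists are counted but not reported by name here. The procedure was tested on simulated data.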

Additional observations from a re-analysis of the deposited data

How the results depend on the processing

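Ccl22, Ccl3, Ccl4 and Ccl20 stayed called higher under all 17 alternatives (DESeq2, limma-voom, other scalings and filters, robust dispersion, length corrections, the replicate block and each library left out), with log2 fold changes of 2.17 to 3.01, 1.56 to 1.93, 0.91 to 1.25 and 0.48 to 0.79. Cxcl3 lost its call in DESeq2 (1.48, adjusted p = 0.0633) and without WT replicate 2, and was 1.01 to 1.84 over the left-out libraries; the stricter filter gave it no value. The number of members called higher was 4 or 5 throughout, and none was called lower. Ccl5 turned to -0.00315 after the length correction and -0.0357 after the length and GC correction, and was 0.02 to 0.52 over the left-out libraries. Of genes called higher and lower there were 2088 to 3245 and 1920 to 2839. With the replicate number as a block, which was not shown to pair the samples, 3005 genes were called higher and 2787 lower, and 5 members were higher; not every library correlated best with its own number. The cause of these changes was not tested.

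Directions also turned for genes that were not called. After the length correction log2 fold changes were -0.0384 for Ccl27a, -0.0543 for Ccr6, -0.0294 for Ccr8 and -0.160 for Cxcr3. After the length and GC correction they were -0.130 for Ccl27a, -0.0497 for Ccr6, -0.0676 for Ccr8, -0.211 for Cxcr3 and -0.0517 for Jund. Jund was called higher (0.33) before these corrections, and the length correction alone ended its call (adjusted p = 0.162). Over the left-out libraries Ccl27a ranged from -0.0319 to 0.388, Ccr6 from -0.0803 to 0.197 and Cxcr3 from -0.0697 to 0.133. Low counts limit Cxcl3, Cxcl10, Ccl17 and Xcl1.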
